A study of Homo sapiens with 8 samples.

Results

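Expression of 10 genes that mark or drive the epithelial-mesenchymal transition (EMT) was measured on 8 one-color arrays from HCT116, a human colorectal cancer cell line. They are the cadherins *CDH1*, *CDH2*, *CDH3* and *CDH11*, the mesenchymal genes *VIM* and *FN1*, and the transcription factors *ZEB1*, *SNAI1*, *SNAI2* and *TWIST1*. The genes were chosen by name, and every non-control probe that the array files assign to a name was taken, which gave 14 probes for 10 of the 32080 named genes on the array. The arrays come from 4 stable HCT116 clones: CONT1 and CONT2 carried the control plasmid pcDNA6.2-GW/EmGFP-miR-neg, and TET1-KD1 and TET1-KD2 each carried a vector expressing an artificial miRNA against *TET1*, an enzyme that oxidizes 5-methylcytosine. The study used 2 different miRNAs, miTET1-1 and miTET1-2, for the HCT116 knockdown clones, and the array titles do not name the vector of a clone. All 4 clones had been selected with G418, and each was a line grown from an isolated colony. Each was analyzed once untreated and once after 72 h in 1 µM 5-aza-dC, an inhibitor of DNA methyltransferases, so a group holds 2 arrays from 2 clones. The array titles give this design, whereas another label field gives mock for all control arrays and 5-aza-dC for all knockdown arrays; the titles were followed.

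In EMT, epithelial cells lose the cell-cell adhesion that E-cadherin, the product of *CDH1*, provides at adherens junctions, and take up traits of mesenchymal cells such as vimentin filaments and N-cadherin. The ZEB, SNAIL and TWIST transcription factors bind E-box motifs, among them those of the *CDH1* promoter, and repress epithelial genes. HCT116 has an epithelial origin. Of 7 epithelial markers examined, *EPCAM*, *KRT8*, *KRT18* and *KRT19* were well above background on all 8 arrays. *LGALS4* was above it on 5 arrays, *VIL1* on 2 and *CDH17* on 0.

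For the members that the results turn on, the 250 bases before the most upstream start site listed by RefSeq (build GRCh38.p14) are shown with each CG in capitals, because CG sites are where DNA methyltransferases act in human DNA. A window was found for 4 of the 10 genes. These windows give sequence only: methylation was not measured on these arrays. The *VIM* window lies on the plus strand at chr10:17227991-17228240, the *CDH2* window on the minus strand at chr18:28177131-28177380 and the *ZEB1* window on the plus strand at chr10:31318167-31318416.
VIM: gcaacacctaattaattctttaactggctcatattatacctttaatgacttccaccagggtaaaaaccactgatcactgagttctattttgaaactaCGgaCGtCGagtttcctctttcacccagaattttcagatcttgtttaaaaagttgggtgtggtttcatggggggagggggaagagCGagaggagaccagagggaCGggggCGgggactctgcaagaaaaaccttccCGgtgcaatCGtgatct
CDH2: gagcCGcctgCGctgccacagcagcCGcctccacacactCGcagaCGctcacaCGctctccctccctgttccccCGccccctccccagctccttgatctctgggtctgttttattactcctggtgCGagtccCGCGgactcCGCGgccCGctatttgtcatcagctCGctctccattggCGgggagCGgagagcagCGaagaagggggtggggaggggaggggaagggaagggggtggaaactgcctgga
ZEB1: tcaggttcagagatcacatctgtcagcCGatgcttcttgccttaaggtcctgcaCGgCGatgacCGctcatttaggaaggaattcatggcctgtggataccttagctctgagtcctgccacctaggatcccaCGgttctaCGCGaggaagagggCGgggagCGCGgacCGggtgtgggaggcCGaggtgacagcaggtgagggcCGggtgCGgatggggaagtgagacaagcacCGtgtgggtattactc
The *VIM* window holds 8 CG, the *CDH2* window 17 and the *ZEB1* window 15, and the fourth window found, that of *FN1*, holds 32. The median over all 35116 windows of this length in the table is 11. At least as many CG occur in 56.3% of windows for *VIM*, in 39.0% for *CDH2*, in 42.9% for *ZEB1* and in 9.5% for *FN1*.

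The probe behind the *VIM* values is shown because it carries the largest change among the members.
VIM probe: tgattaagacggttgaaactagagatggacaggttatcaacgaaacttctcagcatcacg
Its 60 bases are placed by the files at chr10:17278347-17279256 on the plus strand (hg19), a stretch of 910 bases, so the probe crosses an exon junction and reads spliced *VIM* RNA.

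*TET1*, the targeted gene, was read by 3 probes. The brightest gave untreated log2 signals of 9.70 and 9.75 in CONT1 and CONT2 and of 8.65 and 9.41 in TET1-KD1 and TET1-KD2, and after 5-aza-dC 9.64, 9.64, 8.99 and 9.48 in this order. Both knockdown clones were below both control clones in each treatment, but the untreated difference of -0.69 ± 0.29 (SE) had an adjusted p of 0.610. The other probes gave untreated differences of -0.98 (adjusted p = 0.585) and -2.14 (adjusted p = 0.370), the last with both knockdown arrays not well above background. By RT-qPCR, a measurement apart from the arrays, the study reports reduced *TET1* mRNA in both HCT116 knockdown clones, more strongly in TET1-KD1. Here and below, signals are log2 of the processed intensity after each array was scaled to a common 75th percentile, tests are limma's moderated test over all 27286 tested probes with Benjamini-Hochberg adjustment, and a gene was called at an adjusted p below 0.05. The brightest tested probe stood for its gene. Signals of different probes are not compared with each other.

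The scaling percentiles before normalization were 396 to 624 intensity units, and 29490 to 34276 of 58717 spots per array were well above background. Both treated control arrays lay on a second slide, scanned 230 days after the first slide with the other 6 arrays. After scaling, spike-in controls on the second slide differed from those on the first by -0.57 to 0.43. The slide and the treatment of the control clones cannot be told apart, and the same holds for every comparison that uses the treated control arrays. The response of the knockdown clones and the untreated comparison lie within the first slide. In bulk RNA, a change in the number of cells with a transcript and a change per cell cannot be told apart.

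Of the 10 genes, 7 passed the filter for testing, which asked that 1 group or more had the probe well above background on each of its arrays. *CDH1*, *CDH3*, *VIM*, *ZEB1* and *SNAI1* were above background on all 8 arrays. *TWIST1* was above it on 6, and *CDH2* on the 4 treated arrays, so *CDH2* passed only through the groups in which it was high. *CDH11*, *FN1* and *SNAI2* were not tested.

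**Figure D1:**
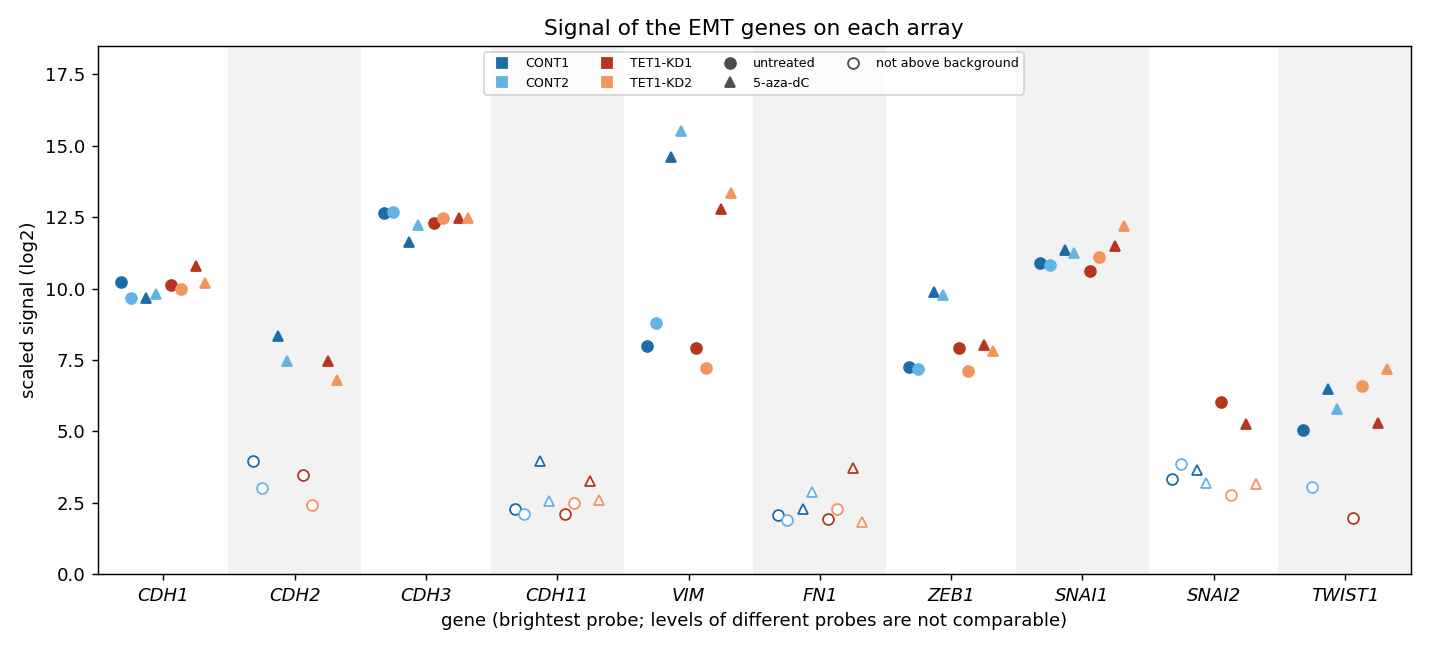
Scaled log2 signal (vertical axis) of the brightest probe of each of the 10 EMT genes on each array; circles are untreated and triangles treated arrays, colors give the clone, and open symbols were not well above background. *VIM* lies between 7.23 and 8.80 on the untreated and between 12.79 and 15.54 on the treated arrays, whereas *CDH1* lies between 9.68 and 10.80 on all 8.

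In the control clones, *VIM*, *CDH2* and *ZEB1* were called higher and *CDH3* lower on the treated arrays, which were also on another slide. In the TET1 knockdown clones *VIM* and *CDH2* were called higher after 5-aza-dC. Over all 18748 named genes tested, 20.6% were higher and 20.9% lower after treatment in the control clones, and 9.52% were higher and 3.16% lower in the knockdown clones, so calls were common in the background as well. Median differences over all these genes were -0.04 and -0.06 on the log2 scale. The comparison within the control clones used the second slide, and that within the knockdown clones did not.

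*VIM*, which encodes the intermediate filament protein vimentin, had the largest change. Its log2 signal without treatment was 7.997 and 8.80 in CONT1 and CONT2 and 7.92 and 7.23 in TET1-KD1 and TET1-KD2. After 5-aza-dC it was 14.59, 15.54, 12.79 and 13.37 in the same order. All treated arrays were above all untreated arrays, and among the treated arrays both knockdown clones were below both control clones. *VIM* rose by 6.66 ± 0.45 (SE) in the control clones, or 101-fold (adjusted p = 0.000219), and by 5.51 ± 0.45 in the knockdown clones, or 45.4-fold (adjusted p = 0.000729). It was called in both kinds of clone under every alternative but 1, the methods' t-test (adjusted p = 0.0519 and 0.194).

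*CDH2* encodes N-cadherin, the cadherin that mesenchymal and neural cells use in place of E-cadherin. Its brighter probe gave 3.98, 3.02, 3.48 and 2.41 in untreated CONT1, CONT2, TET1-KD1 and TET1-KD2, all not well above background. After treatment it gave 8.34, 7.47, 7.46 and 6.80, all well above background. Since the untreated level is only a bound, the rise is given as at least 12.02-fold in the control clones (measured difference 4.40 ± 0.53, adjusted p = 0.00158) and at least 6.64-fold in the knockdown clones (measured difference 4.19 ± 0.53, adjusted p = 0.00429). For such bounds, each dim array was set to the higher of its own value and the lowest signal well above background on that array. The second *CDH2* probe, 3.09, 2.21, 2.26 and 2.67 before and 6.50, 5.24, 5.56 and 5.37 after treatment, was also called in both kinds of clone (adjusted p = 0.00320 and 0.0107).

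*CDH1* itself was not called in either kind of clone. Its probe, spotted 10 times per array, gave 10.23, 9.68, 10.11 and 10.00 in untreated CONT1, CONT2, TET1-KD1 and TET1-KD2 and 9.68, 9.81, 10.80 and 10.19 after treatment. CONT1 was lower after treatment by 0.55, and the other 3 clones were higher by 0.13 to 0.69. The mean difference was -0.21 ± 0.27 (SE) in the control clones (adjusted p = 0.562) and 0.44 ± 0.27 in the knockdown clones (adjusted p = 0.351). Thus *VIM* was called higher while no fall of *CDH1* was called. *CDH2* was called higher too, but it passed the filter only through the treated groups, in which it was high.

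*CDH3*, encoding P-cadherin of basal epithelial cells, gave 12.64, 12.67, 12.30 and 12.49 in untreated CONT1, CONT2, TET1-KD1 and TET1-KD2 and 11.65, 12.23, 12.48 and 12.49 after treatment. Both treated control arrays were below both untreated ones, by 0.72 ± 0.22 on average (adjusted p = 0.0405). The knockdown clones differed by 0.09 ± 0.22 (adjusted p = 0.836). The call in the control clones was lost in 12 of 22 alternatives, among them 7 of the 8 in which 1 array was left out (adjusted p from 0.0535 to 0.152), and without treated CONT1 the difference was -0.42.

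*CDH11*, which encodes a mesenchymal cadherin first known from osteoblasts, was not well above background on any array with either of its 2 probes. The signals of its brighter probe were 2.11 to 3.98.

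**Figure D2:**
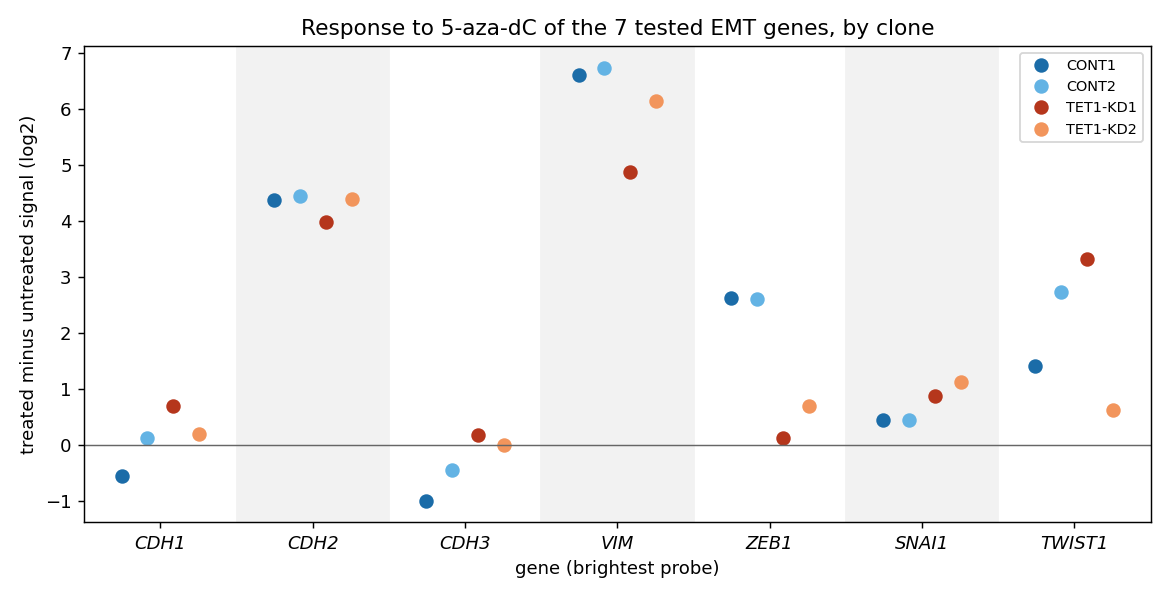
Treated minus untreated log2 signal (vertical axis) of each clone for the brightest probe of the 7 tested EMT genes; the untreated values of *CDH2*, and of *TWIST1* in CONT2 and TET1-KD1, were not well above background. *VIM* rose by 4.87 to 6.73 in the 4 clones, while *ZEB1* rose by 2.62 and 2.61 in the control clones and by 0.12 and 0.70 in the knockdown clones.

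Among the transcription factors, *ZEB1* was called in the control clones. Its brighter probe gave untreated signals of 7.26 and 7.17 in CONT1 and CONT2 and of 7.91 and 7.12 in TET1-KD1 and TET1-KD2. After 5-aza-dC it gave 9.88 and 9.78 in the control clones but 8.03 and 7.82 in the knockdown clones. The treated control arrays stood above all others, and the treated knockdown arrays overlapped with the untreated ones. *ZEB1* rose by 2.62 ± 0.27 (SE) in the control clones, or 6.13-fold (adjusted p = 0.000891), and this call held under all 22 alternatives. In the knockdown clones the difference was 0.41 ± 0.27 (adjusted p = 0.375).

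The second *ZEB1* probe was dimmer. It gave 4.72, 4.80, 5.47 and 3.60 in untreated CONT1, CONT2, TET1-KD1 and TET1-KD2, the last not well above background, and 6.15, 6.23, 5.41 and 5.48 after treatment. Its differences were 1.43 ± 0.54 in the control clones (adjusted p = 0.0782) and 0.91 ± 0.54 in the knockdown clones (adjusted p = 0.337). The probes lie at chr10:31818063-31818122 and chr10:31816261-31816320 (hg19) and are assigned to the same transcript, so they agree in the direction of the rise in the control clones and not in the call.

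*SNAI1*, which encodes SNAIL, was higher in every treated array than in any untreated one. It gave 10.91, 10.82, 10.61 and 11.09 in untreated CONT1, CONT2, TET1-KD1 and TET1-KD2 and 11.36, 11.27, 11.49 and 12.21 after treatment. The differences of 0.45 ± 0.28 in the control clones (adjusted p = 0.238) and 1.00 ± 0.28 in the knockdown clones (adjusted p = 0.0727) missed the threshold. With each clone compared with itself, as a replicate block, both passed it (adjusted p = 0.0494 and 0.0203).

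*TWIST1* and *SNAI2* differed between clones of the same kind. The brighter *TWIST1* probe gave 5.06, 3.06, 1.96 and 6.58 in untreated CONT1, CONT2, TET1-KD1 and TET1-KD2 and 6.47, 5.78, 5.28 and 7.20 after treatment. The untreated values of CONT2 and TET1-KD1 were not well above background, and each clone was higher after treatment, by 0.61 to 3.32. The spread between clones was wide, and neither the difference of 2.06 ± 1.54 in the control clones (adjusted p = 0.319) nor that of 1.97 ± 1.54 in the knockdown clones (adjusted p = 0.465) was called. The second *TWIST1* probe was above background only on the treated CONT1 and TET1-KD2 arrays and ranged from 1.92 to 5.28.

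*SNAI2*, which encodes SLUG, was well above background only in TET1-KD1, at 6.05 untreated and 5.25 treated. On the other 6 arrays it was 2.77 to 3.86. High *SNAI2* was thus a feature of 1 clone with and without the drug, and after treatment TET1-KD1 had the lowest *TWIST1* signal.

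*FN1*, the gene for the matrix protein fibronectin, was not well above background on any array. Its single probe crosses an exon junction at chr2:216288217-216288895 (hg19) and gave 1.84 to 3.73. A level for *FN1* therefore could not be given in either treatment.

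**Figure D3:**
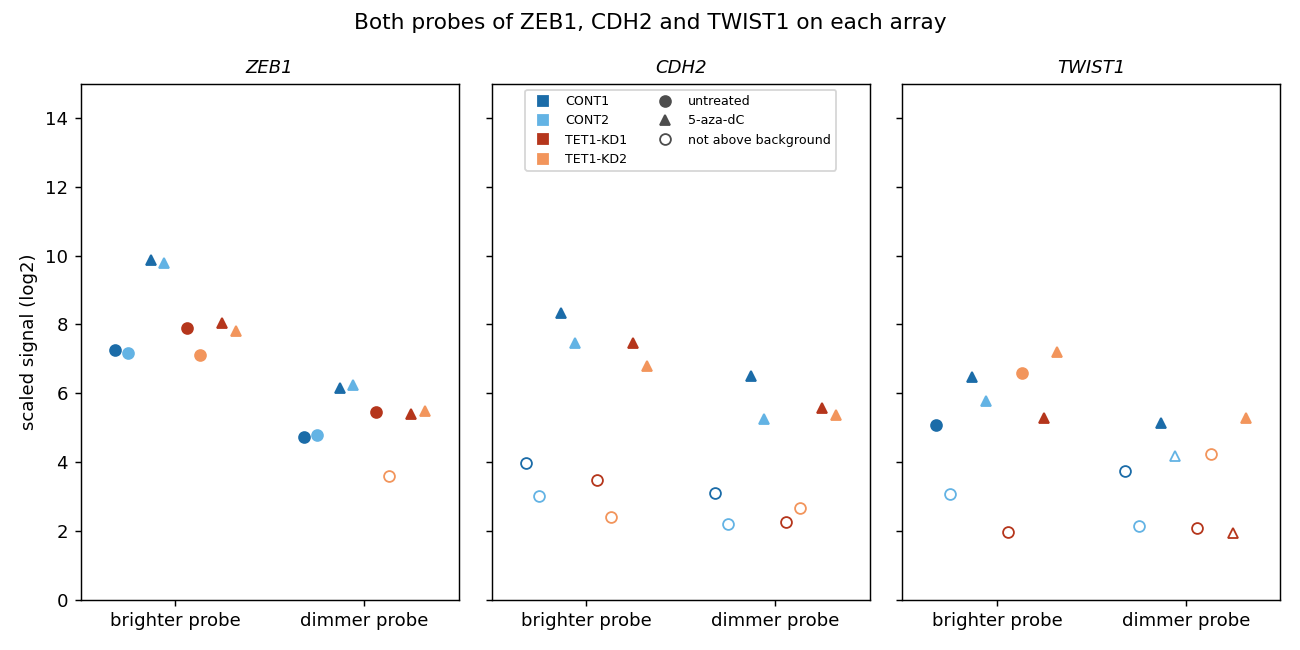
Scaled log2 signal (vertical axis) of both probes of *ZEB1*, *CDH2* and *TWIST1* on each array, with symbols as in the plot of all members; open symbols were not well above background. Both *CDH2* probes separate the treated from the untreated arrays, whereas the treated knockdown arrays of *ZEB1* lie 1.91 below the treated control arrays with the brighter probe and 0.74 below with the dimmer one.

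The knockdown and control clones were next compared without treatment. None of the 7 tested genes was called with limma, and none had an unadjusted p below 0.05; the methods' t-test called 0 as well. Over all named genes 0.0107% were higher and 0.0107% lower in the knockdown clones, which is 2 genes in each direction. The largest difference among the members was that of *VIM*, -0.83 ± 0.45 (SE, adjusted p = 0.639), with both knockdown clones below both control clones. *ZEB1* differed by 0.30 ± 0.27 (adjusted p = 0.739) and *CDH1* by 0.10 ± 0.27 (adjusted p = 0.925).

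After 5-aza-dC, *VIM* and *ZEB1* were lower in the knockdown clones than in the controls, beside 7.71% of all tested genes that were lower and 10.2% that were higher. *VIM* was 3.96-fold lower (-1.99 ± 0.45, adjusted p = 0.0316) and *ZEB1* 3.75-fold lower (-1.91 ± 0.27, adjusted p = 0.00752). The *VIM* call was lost without treated CONT2 (adjusted p = 0.122), treated TET1-KD1 (0.131) or treated TET1-KD2 (0.0603), without the filter on dim probes (0.0568), with the 4 compared arrays alone (0.0682) and with the methods' t-test (0.257). The *ZEB1* call held without each array and was lost with the mean of both probes (-1.33, adjusted p = 0.0734) and with the methods' t-test (0.127). *CDH1* was higher by 0.75 ± 0.27 and *CDH3* by 0.54 ± 0.22, but neither passed the threshold (adjusted p = 0.103 and 0.133). *CDH2* differed by -0.77 ± 0.53 (adjusted p = 0.341) and *SNAI1* by 0.54 ± 0.28 (adjusted p = 0.222). The knockdown arrays of this comparison were on the first slide and the control arrays on the second.

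The response itself was then compared between the kinds of clone, as the response of the knockdown clones minus that of the control clones. *ZEB1* was the 1 member called, at -2.20 ± 0.38 (SE, adjusted p = 0.0316). Over all named genes 3.4% had a higher and 1.59% a lower value in this test. The second *ZEB1* probe, with untreated TET1-KD2 not well above background, gave -0.52 ± 0.77 (adjusted p = 0.719), and the mean of both probes -1.36 (adjusted p = 0.224). For *VIM* the difference in response was -1.16 ± 0.64 (adjusted p = 0.319), for *CDH2* -0.22 ± 0.75 (adjusted p = 0.887), for *CDH1* 0.65 ± 0.38 (adjusted p = 0.349) and for *CDH3* 0.81 ± 0.31 (adjusted p = 0.176). The *CDH2* value rests on untreated signals that were not well above background, so it is no measure of a difference in response. On simulated arrays this test missed even large differences, so the uncalled values do not show like responses.

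Genes with related roles were examined as lists, whose members were chosen with earlier results of these data known, and are described by counts beside the shares over all genes given above. Several list genes passed the filter only through the treated groups, as *CDH2* did, so counts over genes above background on all 8 arrays are added. Among them were *GSC*, *THY1*, *SPARC*, *WNT5B*, *CTGF* and *ENG*, and *PKP1* passed only through the treated knockdown clones. The adjusted p-values of such genes are given as description, not as support for a rise. Of 8 tested other EMT transcription factors, 5 were higher and 1 lower after treatment in the control clones and 3 were higher in the knockdown clones; of the 5 above background throughout, 2 were higher and 1 lower in the control clones and 1 was higher in the knockdown clones. *GSC*, a homeobox gene, went from 2.23 to 2.67 on the untreated arrays, all not well above background, to 5.51 to 6.02 on the treated ones, at least 2.83-fold in the control clones (adjusted p = 0.000101) and at least 2.23-fold in the knockdown clones (adjusted p = 0.000273). *KLF8*, a zinc finger factor, rose by 3.39 ± 0.52 in the control clones (adjusted p = 0.00381) and by a measured 2.64 ± 0.52 in the knockdown clones (adjusted p = 0.0249), with untreated TET1-KD1 not well above background. *SNAI3*, a relative of *SNAI1* and *SNAI2*, rose by 0.94 ± 0.19 in the knockdown clones (adjusted p = 0.0265) and differed by 0.17 ± 0.19 in the control clones (adjusted p = 0.493).

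Of 24 tested mesenchymal genes, 10 were higher and 1 lower in the control clones, and 6 were higher and none lower in the knockdown clones. Of the 16 above background on all arrays, 4 were higher and 1 lower in the control clones and 2 were higher in the knockdown clones. Among these 16, the shares that were higher were near those over all tested genes, 20.6% and 9.52%. Among all 24 the shares that were higher were larger, but some of the 24 passed the filter only through the treated groups. The share lower in the control clones was smaller than the 20.9% over all tested genes. These shares over all tested genes include genes not above background on all arrays. *THY1*, a surface glycoprotein of fibroblasts and other cells, was 2.25 to 2.65 on the untreated arrays, all not well above background, and 8.09 to 9.79 on the treated ones, at least 44.1-fold higher in the control clones (adjusted p = 0.000161) and at least 21.6-fold in the knockdown clones (adjusted p = 0.000402). *SPARC*, a matrix protein, rose in the control clones by a measured 5.25 ± 0.65 (adjusted p = 0.00179), with untreated CONT2 not well above background, and was at least 7.70-fold higher in the treated knockdown clones (adjusted p = 0.00723). *WNT5B* was not well above background on any untreated array. It was at least 4.33-fold higher in the treated control clones and at least 4.01-fold higher in the treated knockdown clones (adjusted p = 0.00705 and 0.0154). *CTGF*, a secreted matricellular factor, rose by a measured 3.54 ± 0.56 and 3.19 ± 0.56 (adjusted p = 0.00430 and 0.0165), with untreated CONT1 and TET1-KD2 not well above background. The gene that fell in the control clones was *AXL*, a receptor tyrosine kinase, by 1.02 ± 0.28 (adjusted p = 0.0300).

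The proteoglycan gene *VCAN* was the 1 mesenchymal gene whose response differed between the kinds of clone. It gave 10.45 and 10.46 in untreated control clones and 11.58 and 11.59 after treatment, against 10.75 and 10.77 before and 10.83 and 10.87 after in the knockdown clones. The difference in response was -1.04 ± 0.19 (SE, adjusted p = 0.0348), and 8 of 20 alternatives kept a call in this list. Both control clones rose, and the knockdown clones stayed close to their untreated level.

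Of 13 tested epithelial maintenance factors, *GRHL2*, *ELF3* and *CDX1* fell there, while none fell in the knockdown clones and *OVOL1*, a zinc finger repressor of EMT, rose there by 0.63 ± 0.15 (adjusted p = 0.0431). Of the 9 above background on all arrays, 2 fell in the control clones and 1 rose in the knockdown clones. The shares that fell were near those over all genes. *GRHL2*, a grainyhead-like activator of epithelial genes including *CDH1*, gave 7.12 and 6.89 in untreated control clones and 3.97 and 3.69, not well above background, after treatment, at least 5.69-fold lower (adjusted p = 0.000799). In the knockdown clones it gave 7.29 and 7.50 before and 6.83 and 5.90 after treatment (-1.03 ± 0.32, adjusted p = 0.0920). The difference in response, called at an adjusted p of 0.0488, has no exact size, since the treated control values were not well above background, and 8 of 20 alternatives kept a call in this list. *ELF3*, an epithelial ETS factor, fell by 2.41 ± 0.33 in the control clones (adjusted p = 0.00246), and *CDX1*, an intestinal homeobox gene, by 1.21 ± 0.20 (adjusted p = 0.00544). For *ELF3* and *CDX1* the differences in response, 1.57 ± 0.46 and 1.20 ± 0.29, missed the threshold (adjusted p = 0.105 and 0.0691). After treatment, *GRHL1*, *GRHL2*, *OVOL1*, *ELF3* and *CDX1*, 5 of the 13, were called higher in the knockdown clones than in the controls. Over all tested genes 10.2% were higher in this comparison. Of the 9 above background on all arrays, 4 were higher. The number called in this list ran from 0 to 5 over 22 alternatives. This comparison also sets the first slide against the second, and an effect of the slide cannot be separated from it.

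**Figure D4:**
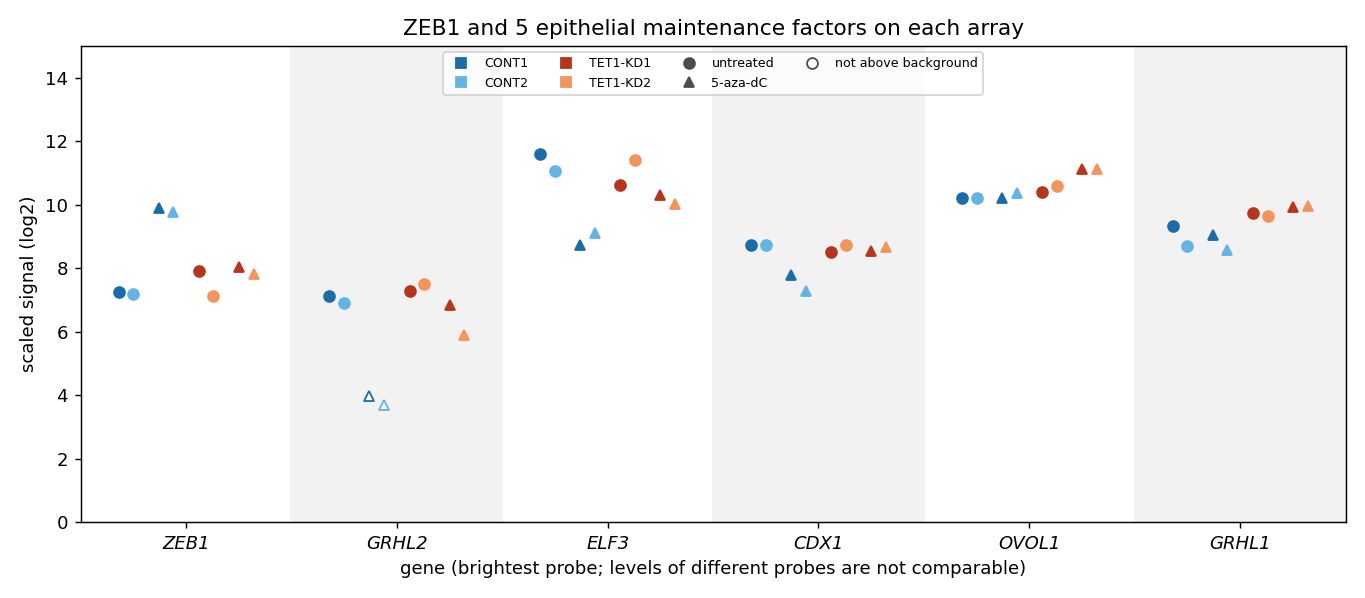
Scaled log2 signal (vertical axis) of *ZEB1* and of 5 of the 13 epithelial maintenance factors on each array. Symbols are as in the plot of all members. The 5 were those called between treated knockdown and treated control clones, as *ZEB1* was. The 8 uncalled factors are left out. Chosen in this way, the genes give no test of a link between *ZEB1* and these factors. The treated groups also differ in slide. In the treated control clones *ZEB1* reaches 9.88 and 9.78 while *GRHL2* drops to 3.97 and 3.69, and in the treated knockdown clones *ZEB1* is 8.03 and 7.82 and *GRHL2* 6.83 and 5.90.

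Of 23 tested genes of epithelial junctions, 1 was higher and 5 were lower in the control clones, and 1 was higher and none lower in the knockdown clones. Of the 22 above background on all arrays, 1 was higher and 5 were lower in the control clones and 0 were called in the knockdown clones. The shares that fell were near those over all genes. The 5 that fell were *EPCAM*, *TJP3*, *MARVELD3*, *DSG2* and *ST14*, with *TJP3*, a tight junction scaffold, falling by 2.16 ± 0.48 (adjusted p = 0.0140) and the desmosomal cadherin *DSG2* by 0.97 ± 0.18 (adjusted p = 0.00809). The gene higher in the control clones was the polarity gene *LLGL2* (1.34 ± 0.21, adjusted p = 0.00409). The desmosomal plakophilin *PKP1* was at least 2.53-fold higher in the treated knockdown clones (adjusted p = 0.0208) and not well above background on any other array. Among the epithelial lists, no difference in response other than that of *GRHL2* was called.

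Of the 6 tested catenins and cadherin partners, the afadin gene *MLLT4* rose in the control clones by 0.76 ± 0.19 (adjusted p = 0.0210), and limma called none in the knockdown clones, where 0 had an unadjusted p below 0.05 and the methods' t-test called 0. Of 18 other cadherin genes, 4 were tested: in the control clones *CDH15* and *CDH24* rose and *CDH5*, not well above background in treated CONT2, and *CDH22* fell, and in the knockdown clones limma and the methods' t-test called none and 1 had an unadjusted p below 0.05. *CDH15*, the muscle cadherin, gave the largest of these rises, 2.13 ± 0.54 (adjusted p = 0.0230). All 6 catenins and cadherin partners were above background on all 8 arrays. So were 3 of the 4 tested cadherins, of which 2 were higher and 1 lower in the control clones.

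TGF-beta is a main inducer of EMT. Of 22 tested genes of its pathway, 6 were higher and none lower in the control clones and 3 were higher and none lower in the knockdown clones. Over all tested genes, 20.6% were higher and 20.9% lower in the control clones, and 9.52% and 3.16% in the knockdown clones. The shares that were higher were thus near those over all genes. Of the 18 above background on all arrays, the control clones had 4 higher and the knockdown clones 2. The 3 were *SKIL*, *ENG* and *ID2*. *SKIL*, a repressor of SMAD signaling, rose by 1.79 ± 0.25 in the control and 1.72 ± 0.25 in the knockdown clones (adjusted p = 0.00288 and 0.00815). *ENG*, the co-receptor endoglin, was not well above background on any untreated array. After treatment it was at least 4.86-fold and at least 2.45-fold higher (adjusted p = 0.00525 and 0.0396). *ID2*, a target gene, rose by 1.35 ± 0.22 and 1.16 ± 0.22 (adjusted p = 0.00506 and 0.0238). Without treatment, limma called no gene of any list between the kinds of clone, and the methods' t-test called 0. The genes with an unadjusted p below 0.05 were 4 in the TGF-beta list and 0 or 1 in each other list. The share of all genes below this unadjusted threshold was not taken, so these counts have no background to be read against.

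**Figure D5:**
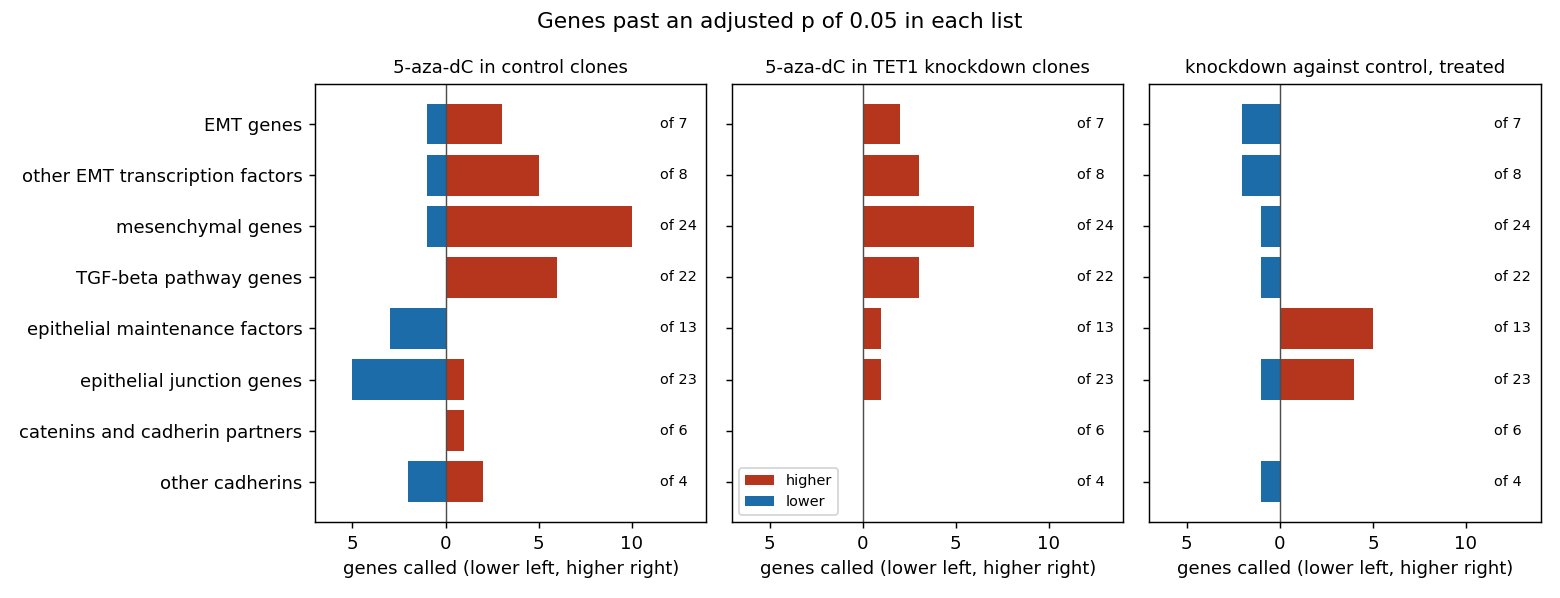
Number of genes called at an adjusted p below 0.05 (horizontal axis, lower to the left and higher to the right of 0) in each list, with the number tested at the right, for treatment in the control clones, treatment in the TET1 knockdown clones, and knockdown against control clones after treatment. The control clones show 3 of 13 epithelial maintenance factors and 5 of 23 junction genes lower, the knockdown clones 0 in both lists, beside 20.9% and 3.16% of all genes lower.

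Markers of other cell types moved with the treatment, and their part in the rises was not tested. Of 7 fibroblast markers, 1 was above background on each untreated array (*COL1A1*) and 3 or 4 on each treated array, with *COL1A1*, *DCN* and *THY1* on all 4, and the summed scaled intensity was 351 to 460 without and 1065 to 1792 with treatment. Of 4 endothelial markers, 1 or 2 were above background untreated and 2 or 3 treated, with sums of 101 to 120 and 197 to 291. They did not move 1 way: in the control clones *PECAM1* and *VWF* were called higher and *CDH5* lower. In the knockdown clones *VWF* was the 1 called, higher. *PECAM1* passed the filter only through the treated control clones. The 7 epithelial markers summed to 324793 to 357570 without and 325171 to 392817 with treatment. These sums are of linear intensity, so *KRT19*, at 17.36 to 17.76 on the log2 scale, weighs most. Of the 5 tested, *KRT18* and *LGALS4* were called higher and *EPCAM* and *KRT8* lower in the control clones. Over all genes 20.6% were higher and 20.9% lower there. *LGALS4* was the 1 called in the knockdown clones, where it was higher, beside 9.52% of all genes.

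*VIM* varied most among the members over the 8 arrays (SD 3.38). The 3 genes whose signal followed it most closely, of 18747 compared, were *LOC643201* (Pearson r = 0.995), *XLOC_l2_012323* (r = 0.993) and *SAP30L* (r = 0.993). *LOC643201* gave 5.26 to 6.14 on the untreated and 8.65 to 10.59 on the treated arrays, and *SAP30L* 10.18 to 10.34 and 10.68 to 10.92. The 8 points share their clones and slides, and the correlation is a description over arrays of 4 conditions.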

How the data were processed

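The authors deposited one-color spot intensity values for each array, written by Feature Extraction 10.7.3.1 (10.7 in the submitters' processing notes) with the background already subtracted and no scaling between arrays. Per the study methods, total RNA was amplified, labeled and hybridized to a SurePrint G3 Human GE array and analyzed in GeneSpring GX by t tests with Benjamini-Hochberg correction; the normalization is not given in the sources used here.

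The processed intensity of each non-control spot was scaled so that the 75th percentile of its array equaled the geometric mean of all arrays. A floor of 1 was set before taking log2, flagged spots were dropped and spots of one probe averaged. A probe was tested when 1 group or more had at least 0.5 of its spots well above background on each array, which left 27286 of 50599 probes and 18748 named genes. One fit of the 4 groups over all 8 arrays was made with limma 3.58.1 in R 4.3.3, with contrasts for treatment in each kind of clone, for the kinds of clone in each treatment, and for the difference in response. All 10 members were described, each by its brightest tested probe, with further probes beside it; of each list, up to 4 called genes with the largest change in the knockdown clones were named, or in the control clones where none was called there, and *VCAN*, *AXL*, *LLGL2*, *TJP3*, *DSG2*, *GRHL1* and the cadherins beyond that rule were named after their values were seen. The members and lists were chosen with earlier results of these data known.

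Same-numbered arrays come from the same clone, by the titles, and their deviations from the group means correlated at 0.198 in the control and 0.476 in the knockdown clones. No label says that a clone was cultured more than once, so p-values rest on the spread between clones of a kind. The 4 groups share 1 estimate of this spread for each probe, moderated over all probes. It can therefore differ from the spread within the groups compared. The alternatives were background correction by normexp (offset 50), quantile normalization, the authors' series matrix values, 2 other filters on dim probes, flagged spots kept, the clone as a block, the 4 compared arrays alone, the first slide alone, the methods' t-test, a minimum of 2-fold, the mean of all probes of a gene, removal of the trend on probe GC content (loess, span 0.5), calibration to the spike-ins, and each array left out. The block with the GC trend removed was added after seeing the data. The functions were tested on simulated arrays, in which estimates were unbiased, but no simulated difference in response was called at the smaller of the sizes tried and only part were at the larger. One further list of cell type markers is not reported here. Promoter sequence came from RefSeq. Plots were drawn with matplotlib.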

Additional observations from a re-analysis of the deposited data

Results flagged for a closer look

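One member had a response to 5-aza-dC that differed between the kinds of clone in the test of that difference itself. The rise of *ZEB1* was smaller in the TET1 knockdown clones than in the control clones, with a difference of -2.20 on the log2 scale (limma, adjusted p = 0.0316), with rises of 2.62 and 2.61 in CONT1 and CONT2 against 0.12 and 0.70 in TET1-KD1 and TET1-KD2. The second slide held the treated control arrays and the first slide the others, so the slide cannot be told apart from this difference. With the signals of the second slide calibrated to the spike-ins the value was -2.56 (adjusted p = 0.0209). The call was lost in 10 of 20 alternatives, where the adjusted p reached 0.224. The second *ZEB1* probe gave -0.52 (adjusted p = 0.719).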

How the results depend on the processing

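Of 760 values of single members under the alternatives, 719 stayed on the same side of the threshold, 34 lost a call, 7 gained one and 0 called values changed sign; 27 values that were never called changed sign. The number of members called in the control clones was 4 and fell to 1 with the methods' t-test. In the knockdown clones it was 2, and 1 with only probes above background on all 8 arrays, which removes *CDH2*, and 0 with the methods' t-test. Between treated clones it was 2, and 1 without the filter on dim probes, with the 4 compared arrays alone or with the mean of all probes, and 0 with the methods' t-test. For the difference in response it was 1, and 0 without the filter on dim probes (adjusted p of *ZEB1* 0.0650), with the mean of all probes (0.224), with the GC trend removed (0.0533) and with both the GC trend removed and the clone as a block (0.0622). With 1 array left out, the counts were 3 to 4 in the control clones, 2 to 3 in the knockdown clones, 0 to 0 between untreated clones, 1 to 2 between treated clones and 0 to 1 for the difference in response. The *ZEB1* difference in response lost its call without either untreated control array or any 1 treated array (adjusted p from 0.0722 to 0.118). The first slide alone gave the same calls in the knockdown and untreated comparisons.

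When the clone entered as a replicate block, the counts were 5, 3, 0, 2 and 1 in the same order of comparisons. The gains were *SNAI1* in both kinds of clone, and *ZEB1* kept its difference in response (-2.20, adjusted p = 0.0391). No other call of a member changed under the block.

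The counts of the lists moved more than those of the members, for example from 2 to 16 for mesenchymal genes and from 0 to 13 for junction genes in the control clones. The number of arrays limits the precision, and *CDH11*, *FN1*, *SNAI2* and untreated *CDH2* were limited by signal over background.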
